A study of Mus musculus with 12 samples.

Results

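The liver response to acetaminophen (APAP) that mice with and without Pml had in common was measured 6 h after the drug. It covered 8 of the 12 arrays of the series, the 4 hybridised with liver RNA taken at 6 h (2 KO, 2 wt) and the 4 from untreated liver (2 KO, 2 wt). Genes were fitted with a term for genotype and a term for treatment, and the treatment term is called the shared response here. The KO 6 h and wt 6 h groups came from Pml KO and Pml wt mice killed 6 h after an intraperitoneal dose of APAP, 300 mg/kg in warmed PBS. The untreated KO and untreated wt groups came from animals killed without the drug, and a vehicle injection is neither stated nor denied in the labels. All were BALB/cByJ females, 2.5 months of age. The labels do not say which part of Pml was deleted, nor whether each sample had an animal of its own. P-values may therefore reflect technical spread among the samples. Arrays of 2 h after APAP (2 KO, 2 wt) are used below to show where a gene stood earlier. They also entered the intensity filter, the choice of probe set and an alternative fit over all 12 arrays.

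APAP is oxidised in hepatocytes, largely by CYP2E1, to a reactive quinone imine that binds glutathione and, once glutathione is spent, cysteines of cell proteins. Mouse liver is known to answer with chaperones, with NRF2 targets that restore thiols, and with a loss of expression of metabolic genes, before neutrophils and monocytes arrive. PML is the scaffold protein of nuclear bodies that gather stress and transcription regulators.

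Each array measured total RNA of 1 liver sample on Affymetrix Mouse Gene 1.1 ST probes, and values are log2 of the normalized intensity unless stated. The median intensity of the 8 arrays lay between 79.9 and 87.3 on the linear scale. Pml itself measured 7.09 and 7.16 in KO and 7.87 and 7.88 in wt liver at 6 h, against 7.10 and 7.97 in untreated KO and 8.18 and 8.46 in untreated wt liver. The array labelled untreated KO replicate 2, at 7.97, fell among the wt arrays in its Pml level, and the other KO arrays lay below all wt arrays. The shared response of Pml was -0.42 ± 0.17 (adjusted p = 0.0701), and -0.25 without that array. On the first principal component of the 8 arrays (71.5% of their variance), KO 6 h replicate 2 lay at 22.8 and the other 6 h arrays at 42.1 to 46.0, against -43.2 to -35.1 in the untreated arrays. Results are therefore also given without these 2 arrays where that matters.

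Of 15 hepatocyte markers tested, 0 rose and 2 fell (limma), so 13.3% were called, against 43.3% of all tested genes. With the variance allowed to depend on intensity, 4 were called lower. Ttr fell by 0.39 and Apoa2 by 0.29 on the log2 scale. Albumin (Alb) differed by -0.03 ± 0.07 (adjusted p = 0.727). The summed intensity of the 15 markers was 100708 to 105184 at 6 h, against 103343 to 117448 in untreated liver, so the sums overlapped. The overlap rests on untreated KO replicate 2, at 103343. The other untreated arrays lay at 111230 to 117448, above all 6 h arrays. In whole tissue, fewer cells of a type and less RNA per cell cannot be told apart. The summed intensity of 15 neutrophil markers was 964 and 789 in KO and 5024 and 2602 in wt liver at 6 h, against 756 to 806 in the 4 untreated arrays. It was thus high in the wt arrays at 6 h, and the part of neutrophil RNA in the results below was not tested.

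Of 17052 tested genes, the shared response called 7380 (43.3%) at an adjusted p under 0.05 (limma, Benjamini-Hochberg), 3191 higher (18.7%) and 4189 lower (24.6%) at 6 h. Of these, 685 rose (4.02%) and 644 fell (3.78%) by at least 2-fold. A gene is said to be alike in both genotypes when 3 conditions held. It was called, its 4 arrays at 6 h all lay on the same side of its 4 untreated arrays, and its KO and wt responses differed by no more than 0.5 times their mean. This rule uses the measured values, so the counts that follow describe its outcome and carry no test. Likewise, that the arrays of an alike gene did not overlap is part of the rule and no further support. It left 4533 genes (26.6% of those tested, and 61.4% of those called), 1886 higher (11.1%) and 2647 lower (15.5%). The alike counts of gene lists below are to be read against this 61.4% of called genes. At least 2-fold changes were alike in 497 genes that rose (2.91%) and 548 that fell (3.21%). The median change of alike genes was 1.59-fold for those higher and 1.53-fold, untreated over 6 h, for those lower.

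The plot of KO against wt responses shows the alike genes in a band around equality, which the likeness rule requires. Of the 7380 called genes, 1127 had arrays that overlapped between 6 h and untreated liver, and 1720 had arrays apart but responses that differed by more than the bound. None, 0 of 7380, had opposite signs in KO and wt liver (limma, all called genes). The additive fit puts a gap between KO and wt responses into its residual. Genes of opposite signs could therefore scarcely be called, and nothing is read from this count. The test of the difference in response, KO minus wt, called 62 genes (0.364% of those tested), and 2707 (15.9%) had an unadjusted p under 0.05. That count of 62 rests on single arrays. It was 4 without untreated wt replicate 1 or 2, 9 without untreated KO replicate 1, 19 without untreated KO replicate 2, 33 without wt 6 h replicate 1, 183 without wt 6 h replicate 2, and 263 and 20 without KO 6 h replicates 1 and 2. A p above the threshold in this test does not show that both genotypes act alike.

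Fitted within a genotype, 2575 genes rose and 3088 fell in KO liver (15.1% and 18.1%), and 2724 rose and 3621 fell in wt liver (16% and 21.2%). The wt total of 6345 was 3654 without untreated wt replicate 2. The KO total of 5663 was 3595 and 3330 without untreated KO replicates 1 and 2, and 3618 without KO 6 h replicate 1. Of the 4533 alike genes, 3361 were called in each genotype alone. Among the 1045 alike genes with at least 2-fold changes, 472 changed more in KO than in wt liver.

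**Figure D1:**
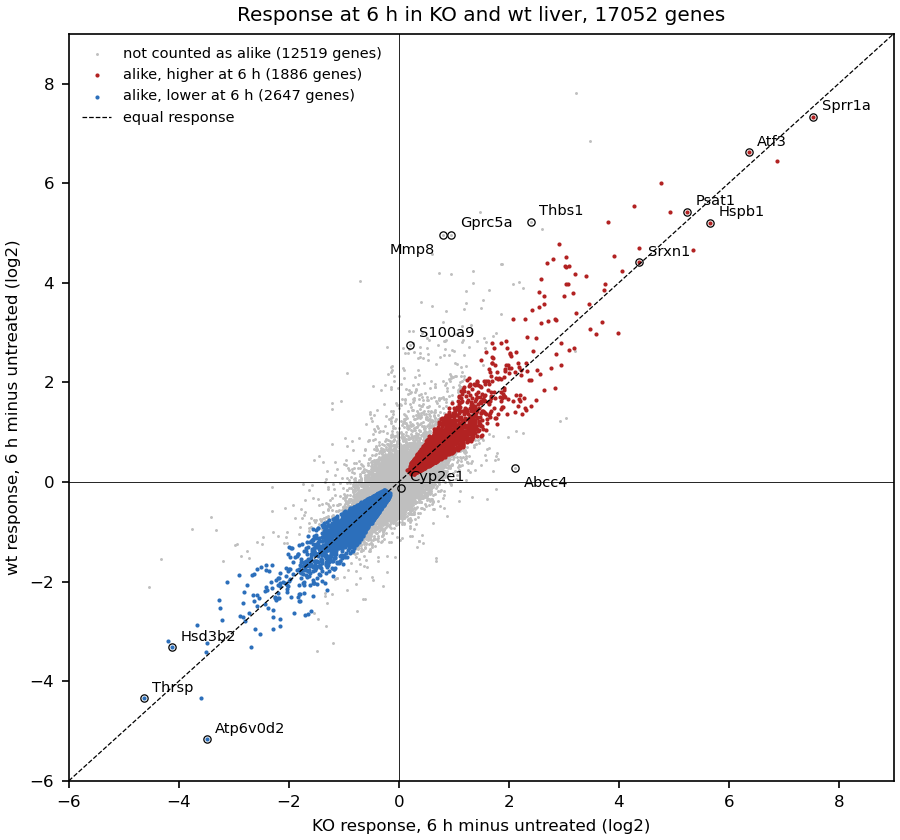
Response at 6 h (6 h minus untreated, log2) in KO liver on the horizontal axis and in wt liver on the vertical axis, 1 point for each of the 17052 tested genes. Coloured points are the 1886 genes alike and higher and the 2647 alike and lower, the dashed line marks equal responses, and circled points are named genes such as Sprr1a near the line and Gprc5a, Mmp8 and Abcc4 away from it.

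Leaving out KO 6 h replicate 2 gave 3111 genes higher and 4243 lower in the shared response, and 4041 of the 4533 alike genes were still alike. Leaving out the array labelled untreated KO replicate 2 gave 2836 higher and 3686 lower, with 3884 still alike. Near the likeness bound, among genes changed at least 2-fold, Reps1, Kctd9 and Ddc lay just inside it. Their KO and wt responses were 2.24 and 1.36, 0.76 and 1.26, and -1.31 and -2.17. Grb7, Caprin2 and Mvd lay just outside, at -2.04 and -1.22, 0.97 and 1.63, and -1.63 and -0.98.

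The 14 largest alike rises included Sprr1a, Aloxe3, Atf3, Hspb1 and Psat1. Sprr1a, a precursor of the cornified envelope of keratinocytes, measured 13.28 and 12.04 in KO and 11.70 and 13.20 in wt liver at 6 h, against 5.14 and 5.10 in untreated KO and 5.11 and 5.12 in untreated wt liver. All 4 arrays at 6 h stood far above all untreated arrays, and its shared response of 7.43 ± 0.34 (adjusted p = 3.23e-06) had the greatest size of any tested gene. Aloxe3, an epidermal lipoxygenase, rose by 6.66 ± 0.43, and Lor, which encodes loricrin of the cornified envelope, by 4.15 ± 0.32. Aloxe3 lay between 3.86 and 4.01 in untreated liver, below the mean of 5 required for testing, so its fold rests on dim values there.

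Atf3, a stress-induced repressor of the ATF family, measured 12.56 and 11.20 in KO and 12.66 and 12.74 in wt liver at 6 h, against 5.65 and 5.38 in untreated KO and 6.59 and 5.56 in untreated wt liver. Its arrays did not overlap, KO 6 h replicate 2 was the lowest of the 6 h arrays, and the shared response was 6.49 ± 0.30 (adjusted p = 3.47e-06). Cidec, a protein of lipid droplets, rose by 5.18 ± 0.20 and Tnfrsf12a, the receptor of the cytokine TWEAK, by 4.54 ± 0.15. Tnfaip6, a secreted hyaluronan-binding protein, rose by 5.00 ± 0.61, over arrays that spread from 7.88 to 10.63 at 6 h and from 2.89 to 4.91 in untreated liver, all below 5, the mean log2 a gene needed over the 12 arrays to be tested, so the size of its change is uncertain. The MAP kinase phosphatase genes Dusp5 and Dusp8 rose by 4.92 ± 0.41 and 4.52 ± 0.50.

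**Figure D2:**
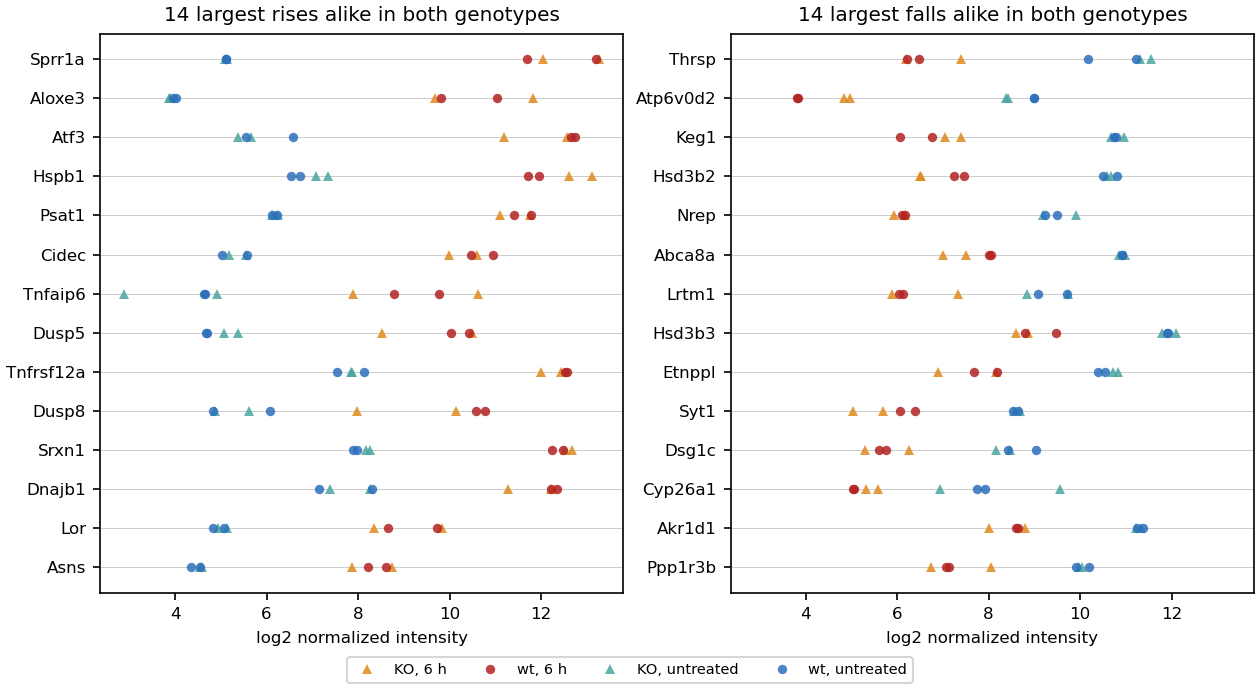
Log2 normalized intensity of the 14 largest rises (left) and 14 largest falls (right) alike in both genotypes, 1 point per array, triangles for KO and circles for wt liver. For each gene shown, the 4 arrays at 6 h lie on one side of the 4 untreated arrays, which the likeness rule requires.

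Heat shock proteins and their cochaperones, which hold and refold damaged proteins, rose in 21 of 26 tested members, fell in 0 and were alike in 20. Their median response was 1.05, against -0.05 over all tested genes. Hspb1, a small heat shock protein that holds unfolded proteins, measured 13.12 and 12.62 in KO and 11.72 and 11.96 in wt liver at 6 h, against 7.07 and 7.35 in untreated KO and 6.74 and 6.53 in untreated wt liver. The groups did not overlap, KO arrays were the higher at both states, and the shared response was 5.43 ± 0.15 (adjusted p = 3.49e-07). A dim further probe set of Hspb1 gave -0.52 and a bright one 5.53, and the mean of its probe sets 3.48. Dnajb1, the J-protein partner of HSP70, rose by 4.23 ± 0.32 and Hsp90aa1, the inducible cytosolic HSP90, by 1.81 ± 0.12.

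The mitochondrial chaperonin subunits Hspd1 and Hspe1 are divergent neighbours that share a promoter, and they moved together. Hspe1 measured 12.73 and 12.49 in KO and 12.33 and 12.48 in wt liver at 6 h, against 11.51 and 11.58 in untreated KO and 11.34 and 11.28 in untreated wt liver. Its arrays did not overlap, and it rose by 1.08 ± 0.08 (adjusted p = 2.56e-05), a gain alike in KO (1.06) and wt (1.09). Hspd1, chosen after its value was seen because of the shared promoter, rose by 0.99 ± 0.08 (adjusted p = 2.94e-05). The exception to likeness among the named members was Dnajb4, at 0.85 in KO and 1.61 in wt liver.

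Promoter windows of members are printed to show the letters that the known regulators of these groups read, from RefSeq on build GRCm38.p6, 250 bases before to 50 after the start of a transcript. The heat shock element, searched on both strands as 3 alternating units of GAA and TTC, each 2 bases apart, stood in 21.2% of 33 promoters of 23 heat shock list genes and in 0.603% of all 32851 promoters. The stretch between Hspe1 and Hspd1 holds a run of such units in which overlapping copies of the element join (capitals), at chr1:55088041-55088094, shown on the plus strand for Hspe1 and on the minus strand for Hspd1.
Hspe1: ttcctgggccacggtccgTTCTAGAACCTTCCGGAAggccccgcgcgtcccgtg
Hspd1: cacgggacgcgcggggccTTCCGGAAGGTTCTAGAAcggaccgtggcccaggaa
Counted from the starts, the window runs from -107 to -54 for Hspe1 and from -162 to -109 for Hspd1. A match of letters is a description of the sequence, not of binding.

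The integrated stress response, in which the factor ATF4 raises genes of amino acid supply when translation is curbed, rose in 16 of 21 members and fell in 2 (1 without any array other than KO 6 h replicate 1 or untreated KO replicate 2). Of the 18 called, 10 were alike (55.6%, against 61.4% of all called genes), and the median was 1.17. Psat1, which makes phosphoserine, measured 11.76 and 11.10 in KO and 11.41 and 11.79 in wt liver at 6 h, against 6.26 and 6.13 in untreated KO and 6.23 and 6.11 in untreated wt liver. All 6 h arrays stood above all untreated arrays, and the rise was 5.33 ± 0.15 (adjusted p = 3.49e-07). Asns, asparagine synthetase, rose by 3.86 ± 0.18 over untreated values of 4.35 to 4.58, which also lie below 5 and leave the size of its change uncertain.

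The amino acid transporter gene Slc7a5 rose by 2.20 ± 0.18 and its heavy chain gene Slc3a2 by 0.96 ± 0.08. Eif4ebp1, which holds back the cap-binding factor, rose by 1.17 ± 0.08 and Sqstm1, the autophagy receptor p62, by 1.47 ± 0.07. Cebpb, a bZIP partner of ATF4, was not alike, at 1.18 in KO and 2.14 in wt liver. Slc7a11, the cystine importer, was singled out after its values were seen. It measured 11.27 and 6.61 in KO and 10.81 and 10.84 in wt liver at 6 h, against 5.97 and 6.10 in untreated KO and 5.90 and 6.20 in untreated wt liver. KO 6 h replicate 2 stood near the untreated arrays, yet Slc7a11 met the likeness rule. Its shared response was 3.84 ± 0.85 (adjusted p = 0.00609).

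Of serine, asparagine and one-carbon genes, 6 of 13 were higher (46.2%) and 3 lower (23.1%), 7 of these 9 alike. The share lower was near the 24.6% of all tested genes, of which 18.7% were higher. Besides Psat1 and Asns on the rising side, the cytosolic folate enzymes Mthfd1 and Shmt1 fell by 1.69 and 1.48 on the log2 scale, and the mitochondrial Shmt2 by 0.90. Mthfd1 measured 8.96 and 9.08 in KO and 9.12 and 9.21 in wt liver at 6 h, against 10.73 to 10.85 in untreated liver of both genotypes, and the groups did not overlap.

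Cytosolic aminoacyl-tRNA synthetases, which charge tRNAs for translation and many under the control of ATF4, were higher in 14 of 17 members and lower in 0, with 13 alike and a median of 0.62. Sars measured 10.48 and 10.24 in KO and 10.44 and 10.51 in wt liver at 6 h, against 9.13 and 9.09 in untreated KO and 9.37 and 9.06 in untreated wt liver. Its rise of 1.26 ± 0.09 (adjusted p = 2.4e-05) was 1.25 in KO and 1.26 in wt liver, with no overlap of arrays. Gars, Lars and Nars rose by 0.94, 0.92 and 0.96. Qars was called but not alike, at 0.31 ± 0.09, and its call ended without untreated KO replicate 1 (adjusted p = 0.0536) or wt 6 h replicate 2 (adjusted p = 0.0542).

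The C/EBP-ATF response element, TGATGNAA on either strand, which ATF4 pairs are known to bind, stood in 4 of 9 promoters of synthetase genes (44.4%), in 6 of 19 of the integrated stress response list (31.6%), in 1 of 12 of the serine and asparagine list (8.33%) and in 3.97% of all promoters. Among all alike genes that rose at least 2-fold it stood in 2.94% of 511 promoters. The windows of genes on these lists are shown with the element in capitals. Slc7a11 carries it at chr3:50443635-50443697 on the minus strand, in both directions, and Gars at chr6:55037953-55037996 on the plus strand. Tars carries it at chr15:11399659-11399691 and Asns at chr6:7693210-7693250, both on the minus strand.
Slc7a11: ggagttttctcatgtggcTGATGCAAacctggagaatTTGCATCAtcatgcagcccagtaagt
Gars: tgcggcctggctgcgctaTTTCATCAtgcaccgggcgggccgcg
Tars: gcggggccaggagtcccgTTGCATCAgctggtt
Asns: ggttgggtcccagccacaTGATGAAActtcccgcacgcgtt
Their shared responses ran from 0.26 ± 0.08 for Tars (adjusted p = 0.0204) to 3.86 for Asns.

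Genes of ribosome biogenesis and the nucleolus rose in 31 of 31 tested members, 30 of them alike, at a median of 1.31. The 31 changes ran from 0.47 to 2.23. Ddx21, a helicase of rRNA synthesis, measured 10.64 and 10.45 in KO and 10.33 and 10.63 in wt liver at 6 h, against 8.84 and 8.74 in untreated KO and 9.02 and 8.56 in untreated wt liver. The lowest 6 h array stood above the highest untreated array by more than either group spread, and the rise was 1.72 ± 0.12 (adjusted p = 1.59e-05). Gar1, of the particle that guides pseudouridylation, rose by 1.74 ± 0.10. Rrp1b, a nucleolar processing factor, rose by 1.40 ± 0.07, and Polr1b, a large subunit of RNA polymerase I, by 1.47 ± 0.09. Polr1c, shared by polymerases I and III, rose by 0.68 ± 0.12 but was not alike, at 0.92 in KO and 0.44 in wt liver.

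Translation initiation factors rose in 18 of 21 members and fell in 0, with 15 alike and a median of 0.73. Eif4e, which binds the mRNA cap, measured 10.56 and 10.15 in KO and 10.31 and 10.58 in wt liver at 6 h, against 8.96 and 8.96 in untreated KO and 8.98 and 8.65 in untreated wt liver. It rose by 1.51 ± 0.13 (adjusted p = 3.66e-05) with no overlap, and its second probe set, used for no test, gave 0.91. Eif6, which keeps ribosomal subunits apart, rose by 1.11 ± 0.09. Pabpc4 and Eif5 rose by 1.15 and 0.91, and Eif1a was not alike at 0.72 in KO and 1.23 in wt liver.

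Proteasome subunits rose in 29 of 32 members and fell in 0, with 27 alike and a median of 0.67. Psmd14, the deubiquitinase of the lid, measured 11.68 and 11.64 in KO and 11.23 and 11.39 in wt liver at 6 h, against 10.49 and 10.52 in untreated KO and 10.32 and 10.24 in untreated wt liver. It rose by 1.09 ± 0.08 (adjusted p = 1.69e-05), with 1.16 in KO and 1.03 in wt liver. The core subunit Psma5 rose by 1.05 ± 0.07, and Psmd3 and Psmd11 of the regulatory particle by 1.0 and 0.97. The immunoproteasome subunits Psmb8 and Psmb9, which cytokines induce in place of the usual catalytic subunits, are on the interferon list and fell by 0.98 and 1.08.

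Cytoskeletal genes rose in 24 of 28 members and fell in 0 (1 fell without untreated wt replicate 2), with 15 alike and a median of 0.98. Among those called, 62.5% were alike, near the 61.4% of all called genes. Tubb6, an isotype of beta-tubulin, measured 11.46 and 11.38 in KO and 11.35 and 11.61 in wt liver at 6 h, against 7.49 and 7.88 in untreated KO and 7.61 and 7.63 in untreated wt liver. All 6 h arrays stood above all untreated arrays, and the rise of 3.80 ± 0.11 (adjusted p = 3.49e-07) was 3.73 in KO and 3.86 in wt liver. Tubb4b and the tropomyosin gene Tpm1 rose by 1.77 and 1.49, and Tagln2, an actin-bundling protein, by 1.46. Vcl, which encodes vinculin of focal adhesions, was not alike, at 1.08 in KO and 1.86 in wt liver. Tubulin and actin genes are close paralogs, and probes that read more than 1 of them cannot be told apart here.

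**Figure D3:**
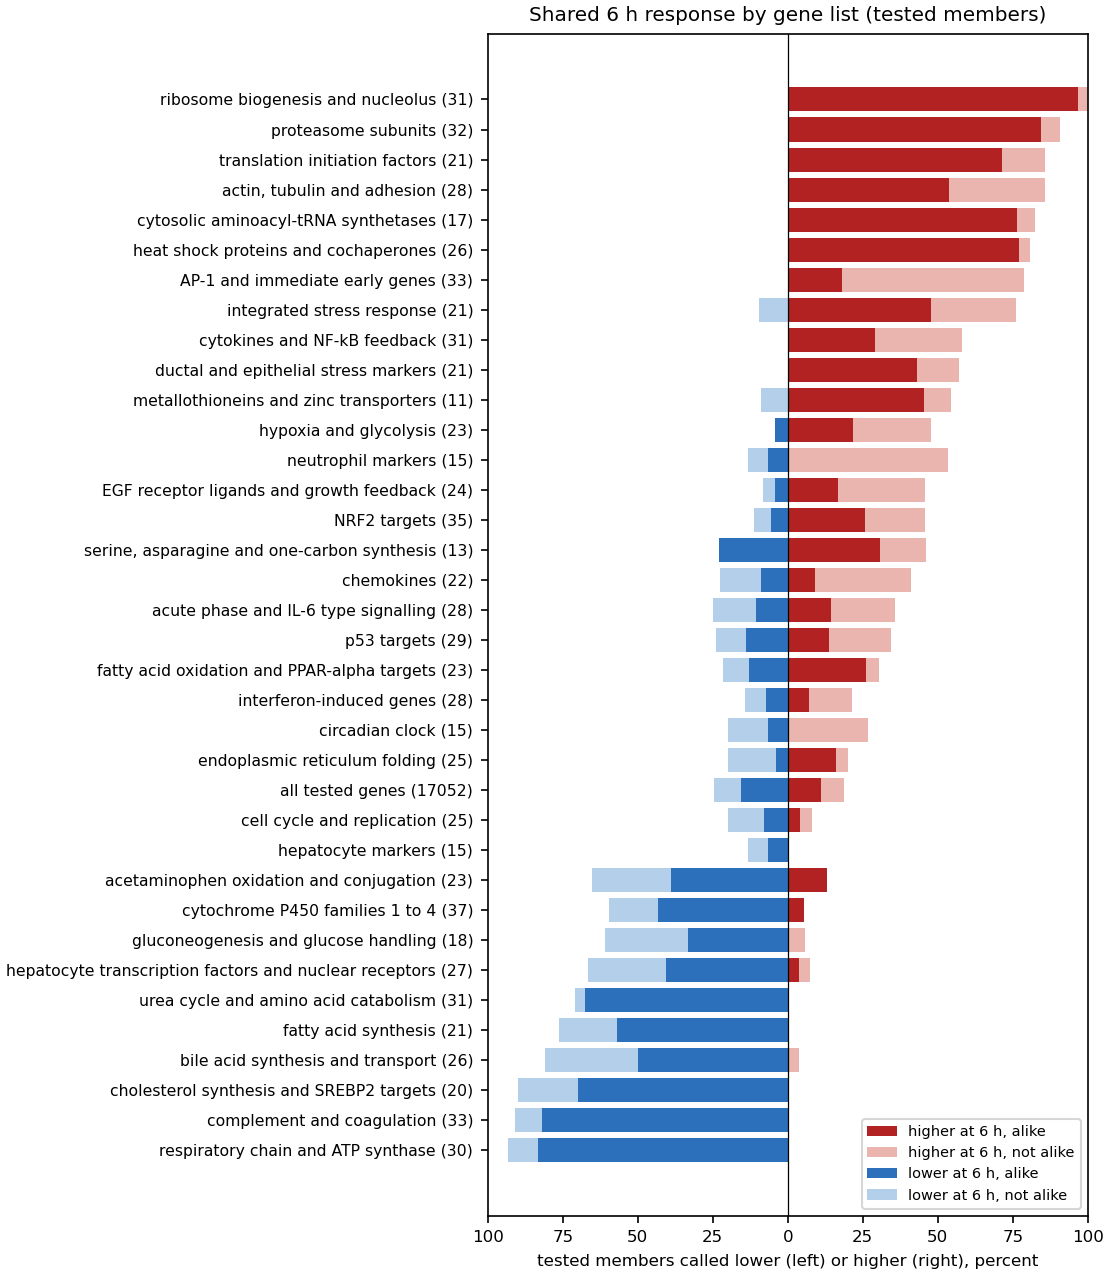
Percent of tested members of each gene list drawn (number of tested members in brackets) called higher (right of 0) or lower (left of 0) in the shared 6 h response, with the alike share in the darker shade. Of the cell type marker lists, only those of hepatocytes and neutrophils are drawn. Ribosome biogenesis stands at the top with 100% higher and the respiratory chain at the bottom with 93.3% lower, against 18.7% higher and 24.6% lower over all tested genes.

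Of 35 tested NRF2 targets, the genes that restore glutathione and thioredoxin, 16 rose and 4 fell, with a median of 0.26. Of those called, 11 were alike (55%, against 61.4% of all called genes), and 7 without KO 6 h replicate 1. Without KO 6 h replicate 2, 14 rose and 7 fell. Srxn1, which reduces overoxidised peroxiredoxin, measured 12.67 and 12.52 in KO and 12.23 and 12.47 in wt liver at 6 h, against 8.17 and 8.26 in untreated KO and 7.90 and 7.97 in untreated wt liver. Its rise of 4.40 ± 0.08 had the smallest p of any tested gene (adjusted p = 4.83e-08) and stood at 4.38 in KO and 4.42 in wt liver. Txnrd1, thioredoxin reductase, rose by 2.25 ± 0.10, and Hmox1, heme oxygenase, by 3.48 ± 0.21. Gclc, the catalytic subunit that limits glutathione synthesis, rose by 0.74 ± 0.11 (0.95 in KO and 0.53 in wt liver) and missed the likeness rule. Gsta3, a glutathione transferase with close paralogs, fell by 0.84 with an alike response.

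The antioxidant response element, TGACNNNGC on either strand, which NRF2 with a small MAF protein is known to bind, stood in 31.6% of 38 promoters of 30 NRF2 list genes, in 16.4% of promoters of alike genes at least 2-fold higher and in 12.4% of all promoters. Promoters of alike genes at least 2-fold lower held it in 14.3%, and those of all tested genes in 13.6%. The AP-1 site, TGACTCA, which can lie within that element, stood in 13.2% of NRF2 list promoters, in 7.05% of promoters of alike genes at least 2-fold higher and in 5.2% of all promoters. For alike genes at least 2-fold lower the share was 4.59%, and for all tested genes 4.3%. Srxn1 and Txnrd1 are shown because Srxn1 changed the most on the list and Txnrd1 carries the antioxidant element. The capitals mark AP-1 sites in Srxn1, at chr2:152105404-152105503, and the antioxidant element in Txnrd1, at chr10:82859096-82859140, both on the plus strand.
Srxn1: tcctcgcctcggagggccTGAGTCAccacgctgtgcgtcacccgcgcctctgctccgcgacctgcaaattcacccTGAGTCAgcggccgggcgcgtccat
Txnrd1: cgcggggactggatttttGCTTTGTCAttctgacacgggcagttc
Counted from the starts, the windows run from -120 to -21 for Srxn1 and from -110 to -66 for Txnrd1.

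Metallothioneins and zinc transporters rose in 6 of 11 members and fell in 1 (0 without any array other than untreated KO replicate 1, wt 6 h replicate 1 or KO 6 h replicate 2), with 5 alike (3 if replicate 2 of untreated wt or of wt at 6 h is left out). Mt1, which binds zinc and copper, measured 12.29 and 12.14 in KO and 12.61 and 12.44 in wt liver at 6 h, against 9.07 and 9.23 in untreated KO and 8.58 and 8.52 in untreated wt liver. It rose by 3.52 ± 0.17 (adjusted p = 4.07e-06), with the KO arrays the higher in untreated and the lower in 6 h liver. Mt2 rose by 3.68 ± 0.38, and both genes may share probe signal as near copies. The zinc importer gene Slc39a10 rose by 1.97 ± 0.24, and the exporter gene Slc30a1 by 0.54 ± 0.09.

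Hypoxia and glycolysis genes rose in 11 of 23 members and fell in 1, with 6 alike. That is 50% of those called, against 61.4% of all called genes. Ndrg1, a growth arrest gene of hypoxic cells, measured 10.67 and 10.72 in KO and 10.45 and 9.94 in wt liver at 6 h, against 7.84 and 7.99 in untreated KO and 8.04 and 7.77 in untreated wt liver, and rose by 2.53 ± 0.15 (adjusted p = 7.37e-06). Aldoa, the aldolase of muscle, rose by 1.68 ± 0.09, and Adm, a vasodilator peptide that was below 5 in all untreated arrays, by 3.72 ± 0.27. Pdk1, which blocks pyruvate dehydrogenase and is itself a hypoxia target, fell by 2.22 on the log2 scale. Vegfa, an angiogenic target chosen after its value was seen, differed by 0.19 and did not pass.

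Of 29 p53 targets, 10 rose (34.5%) and 7 fell (24.1%, against 24.6% of all tested genes), with 8 alike (5 without untreated KO replicate 1). With all arrays the alike share was 47.1% of those called, against 61.4% of all called genes. The list median was 0.02, and turned to -0.05 without untreated wt replicate 1 and to -0.01 without KO 6 h replicate 2. Tigar, which lowers glycolytic flux, and Aen, a nuclease of apoptosis, rose by 0.93 and 0.90, and Dcxr and Ei24 fell by 1.18 and 0.53. Fas, the death receptor, fell with responses of -1.41 in KO and -0.79 in wt liver and was not alike. Cdkn1a, the cell cycle inhibitor p21, was singled out after its values were seen. It measured 11.34 and 10.44 in KO and 11.67 and 11.57 in wt liver at 6 h, against 6.96 and 8.74 in untreated KO and 8.18 and 6.02 in untreated wt liver. The groups did not overlap although the untreated arrays spread widely, and it rose by 3.78 ± 0.56 (adjusted p = 0.000703).

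Folding genes of the endoplasmic reticulum rose in 5 of 25 members and fell in 5, which is 20% each way and near the 18.7% and 24.6% of all tested genes. Of these 5 were alike (8 without KO 6 h replicate 2), and the median was -0.06 (0.02 without untreated wt replicate 1). With all arrays the alike share was 50% of those called, against 61.4% of all called genes. Hspa5, the chaperone BiP, rose by 0.89 ± 0.10 and Dnajb9, its cochaperone, by 1.04 ± 0.15. Edem1, which sends misfolded glycoproteins to degradation, fell by 1.02, and Sel1l of the same route by 0.76. Pdia6, a disulfide isomerase, had responses of -0.52 in KO and -1.02 in wt liver and was not alike.

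Immediate early genes, transcription factors and phosphatases that a stimulus induces first, rose in 26 of 33 members and fell in 0, at a median of 2.19. Of these 26, 6 were alike (23.1%, against 61.4% of all called genes), and the list median was 1.25 in KO and 2.90 in wt liver. The alike count rests on single arrays: it was 15 of 30 called with KO 6 h replicate 2 left out, and 1 of 25 with KO 6 h replicate 1 left out. With all arrays the 6 alike were Atf3, Dusp5, Dusp8, Gadd45b, Ier3 and Jund. Gadd45b, a stress sensor upstream of MAP kinases, measured 8.85 and 7.94 in KO and 10.54 and 9.79 in wt liver at 6 h, against 6.13 and 5.38 in untreated KO and 6.16 and 6.71 in untreated wt liver. The groups did not overlap, KO arrays were the lower at 6 h, and it rose by 3.19 ± 0.32 (adjusted p = 9.02e-05). Mafk, a small MAF partner, rose by 1.59 in KO and 2.80 in wt liver, outside the bound. The KO minus wt difference was called for 3 of the 33.

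Among the falls, Thrsp, a driver of lipogenesis known as Spot14, measured 6.19 and 7.41 in KO and 6.49 and 6.21 in wt liver at 6 h, against 11.32 and 11.55 in untreated KO and 10.16 and 11.23 in untreated wt liver. Its arrays did not overlap, and the shared response of -4.49 ± 0.29 (adjusted p = 1.33e-05) was the lowest of any tested gene. Atp6v0d2, which belongs to the V-type proton pump of acidic organelles, measured 4.84 and 4.98 in KO and 3.83 and 3.82 in wt liver at 6 h, against 8.42 and 8.38 in untreated KO and 8.98 and 9.0 in untreated wt liver. It met the likeness rule with responses of -3.49 in KO and -5.16 in wt liver, yet it was the only alike gene whose KO minus wt difference was called (1.68, adjusted p = 0.00625). The KO arrays stayed the higher at 6 h, while all 6 h values were dim.

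Keg1, which is expressed in kidney and liver, fell by 3.97, and Nrep by 3.36. The 3-beta-hydroxysteroid dehydrogenase genes Hsd3b2 and Hsd3b3 fell by 3.71 and 3.0, and probes may not separate these near-identical copies. Abca8a, a lipid transporter, fell by 3.27, Etnppl, a phospholyase, by 2.89, and Cyp26a1, which clears retinoic acid, by 2.79. Cyp26a1 measured 5.32 and 5.59 in KO and 5.05 and 5.03 in wt liver at 6 h, against 9.55 and 6.95 in untreated KO and 7.91 and 7.75 in untreated wt liver. Its untreated KO arrays lay far apart from each other, with the lower still above all 6 h arrays. Ppp1r3b, which targets a phosphatase to glycogen, fell by 2.78, and Lrtm1, Syt1 and Dsg1c by 3.0, 2.82 and 2.79.

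Cholesterol synthesis genes, the targets of SREBP2, fell in 18 of 20 members and rose in 0, with 14 alike and a median of -1.33. Stard4, which moves cholesterol between membranes, measured 6.79 and 6.76 in KO and 6.98 and 7.19 in wt liver at 6 h, against 9.31 and 9.55 in untreated KO and 9.32 and 9.40 in untreated wt liver. All 6 h arrays lay below all untreated ones, and it fell by 2.46 (adjusted p = 3.12e-06). The sterol enzymes Sc5d and Dhcr7 fell by 1.77 and 1.52, and Pmvk of the mevalonate pathway by 1.65. Hmgcs1, of the mevalonate pathway, had responses of -1.62 in KO and -0.92 in wt liver and was not alike. The sterol regulatory element, TCACNCCAC on either strand, stood in 1 of 18 promoters of the list (5.56%) and in 1.24% of all promoters.

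Fatty acid synthesis genes fell in 16 of 21 members and rose in 0, with 12 alike and a median of -0.96. Srebf1, the regulator of lipogenesis, measured 7.59 and 7.76 in KO and 7.84 and 7.71 in wt liver at 6 h, against 10.05 and 10.15 in untreated KO and 9.80 and 10.13 in untreated wt liver. It fell by 2.31 (adjusted p = 3.12e-06), at -2.42 in KO and -2.19 in wt liver. Acss2, which makes acetyl-CoA from acetate, fell by 2.51, and Scd1, the stearoyl-CoA desaturase, by 1.71. Acly, the citrate lyase, had responses of -1.0 in KO and -1.90 in wt liver and was not alike.

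Of fatty acid oxidation genes and targets of PPAR-alpha, 7 of 23 were higher (30.4%) and 5 lower (21.7%), 9 of the 12 alike. Over all tested genes 18.7% were higher and 24.6% lower. The acyl-CoA thioesterase genes Acot1 and Acot2, which are close paralogs, rose by 2.54 ± 0.16 and 2.28 ± 0.19. Acot1 measured 10.56 and 9.78 in KO and 10.90 and 10.55 in wt liver at 6 h, against 7.73 and 7.72 in untreated KO and 8.09 and 8.09 in untreated wt liver, with no overlap. Vnn1, a pantetheinase, rose by 2.62 ± 0.23, and Ehhadh, of peroxisomal beta-oxidation, by 1.02 ± 0.09. On the falling side Acads, a mitochondrial dehydrogenase of short chains, fell by 0.54.

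Bile acid genes fell in 21 of 26 members and rose in 1 (0 when untreated KO replicate 1 or KO 6 h replicate 1 was left out), with 13 alike and a median of -0.81. The alike share was 59.1% of those called, against 61.4% of all called genes. Akr1d1, the steroid 5-beta-reductase of bile acid synthesis, measured 8.0 and 8.79 in KO and 8.64 and 8.61 in wt liver at 6 h, against 11.23 and 11.34 in untreated KO and 11.23 and 11.38 in untreated wt liver. It fell by 2.79 (adjusted p = 6.73e-06), and the 4 untreated arrays lay close together. Cyp7a1, the rate-limiting enzyme of the pathway and singled out after its values were seen, fell by 2.63 (adjusted p = 3.46e-05). The export pump Abcb11 fell by 1.48, the conjugating enzyme Baat by 1.56, and Nr5a2, a nuclear receptor that drives Cyp7a1, by 1.07. Fgfr4, the receptor that relays the gut signal against bile acid synthesis, had responses of -0.56 in KO and -1.07 in wt liver and was not alike.

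Genes that oxidise or conjugate APAP fell in 15 of 23 members and rose in 3, with 12 alike and a median of -0.57. Cyp2e1 measured 13.08 and 13.01 in KO and 13.04 and 13.07 in wt liver at 6 h, against 13.03 and 12.98 in untreated KO and 13.21 and 13.13 in untreated wt liver. Its arrays overlapped, and it differed by -0.04 ± 0.07 (adjusted p = 0.716). Sult1b1, a sulfotransferase, fell by 2.28, Cyp1a2 by 1.10 and the glucuronosyltransferase gene Ugt2b36 by 0.72. On the other side Gstp1, a glutathione transferase with a near copy, rose by 1.52 ± 0.12, and Ugdh, which makes the glucuronic acid donor, by 1.21 ± 0.14. Of the cytochrome P450 genes of families 1 to 4, 22 of 37 fell and 2 rose, with 18 alike, among them Cyp4f14 (-1.58), Cyp2r1 (-1.90), Cyp2g1 (-2.27) and Cyp2j5 (-0.73). Cyp4a14, a target of PPAR-alpha, rose by 1.29 ± 0.13.

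Urea cycle and amino acid catabolism genes fell in 22 of 31 members and rose in 0 (1 rose without KO 6 h replicate 1), with 21 alike and a median of -0.71. Aldh4a1, of proline breakdown, measured 9.25 and 9.34 in KO and 9.33 and 9.33 in wt liver at 6 h, against 10.75 and 10.68 in untreated KO and 10.68 and 10.80 in untreated wt liver. It fell by 1.42 (adjusted p = 4.6e-06), with all 6 h arrays far below all untreated ones. Amt, of glycine cleavage, fell by 1.49, Haao, of the kynurenine route, by 1.45, and Uroc1, of histidine breakdown, by 1.33. Agxt, of glyoxylate disposal, fell by 0.64 with overlapping arrays, and its call ended with 6 group means over all 12 arrays (adjusted p = 0.0847).

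Gluconeogenesis and glucose handling genes fell in 11 of 18 members and rose in 1 (0 without any array other than untreated KO replicate 2 or KO 6 h replicate 1). Of those called, 6 were alike (50%, against 61.4% of all called genes). Pygl, the glycogen phosphorylase of liver, fell by 1.42, Slc2a2, its glucose transporter, by 1.37, and Gys2, its glycogen synthase, by 0.73. Gckr, which holds glucokinase in the nucleus, had responses of -0.47 in KO and -1.16 in wt liver and was not alike.

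Subunits of the respiratory chain and ATP synthase fell in 28 of 30 members and rose in 0, with 25 alike. The changes were small, at a median of -0.49, and ran from -0.82 to -0.08. Sdhb, of complex II, measured 10.19 and 10.43 in KO and 10.24 and 10.38 in wt liver at 6 h, against 11.25 and 11.09 in untreated KO and 10.98 and 11.20 in untreated wt liver, and fell by 0.82 (adjusted p = 0.000165). The complex I subunits Ndufa9, Ndufs1 and Ndufb8 fell by 0.81, 0.62 and 0.64.

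Complement and coagulation genes, whose proteins hepatocytes secrete, fell in 30 of 33 members and rose in 0, with 27 alike and a median of -0.59. Mbl1, a mannose-binding lectin, measured 9.65 and 9.44 in KO and 9.68 and 9.63 in wt liver at 6 h, against 11.12 and 10.96 in untreated KO and 11.10 and 11.08 in untreated wt liver. It fell by 1.47 (adjusted p = 6.03e-06) with no overlap. F13b, of the clot-stabilising factor, fell by 1.27, the protease gene C1s1 by 1.17 and Proz, which inhibits factor X with a partner, by 1.33. Of hepatocyte transcription factors and nuclear receptors, 18 of 27 fell and 2 rose, with 12 alike. That is 60% of those called, against 61.4% of all called genes. Nfib and Nfix of the nuclear factor I family fell by 1.41 and 0.75, and Pparg, the adipogenic receptor, rose by 1.10 ± 0.13.

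Circadian clock genes rose in 4 of 15 members and fell in 3, with 1 alike, Tef (-0.82). The share lower, 20%, was under that of all tested genes (24.6%). The alike count was 0 without untreated wt replicate 2 or KO 6 h replicate 1, 2 on leaving out untreated wt replicate 1, 3 on leaving out wt 6 h replicate 2 and 5 on leaving out KO 6 h replicate 2. The counts higher and lower were 1 and 4 without untreated wt replicate 2, 1 and 3 without wt 6 h replicate 1, and 2 and 3 without wt 6 h replicate 2 or KO 6 h replicate 1. Per3 fell by 2.13 and Ciart, below 5 in all untreated arrays, rose by 2.52, neither alike, and the call of Per1 ended without any of 4 arrays, untreated wt replicates 1 and 2 and wt 6 h replicates 1 and 2 (adjusted p of 0.05 to 0.0622). The labels do not record the hour of the day at which animals were killed, and its part in these values was not tested.

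Cytokine and NF-kB feedback genes rose in 18 of 31 members and fell in 0, with a median of 0.65. Of the 18, 9 were alike (50%, against 61.4% of all called genes). Besides Tnfrsf12a, Bcl3, a nuclear IkB protein, rose by 1.84 ± 0.20 with alike responses, the NF-kB subunit Rela by 0.96 ± 0.10 and the adhesion molecule Icam1 by 1.08 ± 0.12. Il1r1, the interleukin-1 receptor, was not alike at 1.13 in KO and 2.13 in wt liver. The list median was 0.31 in KO and 0.96 in wt liver. The neutrophil marker sums were 789 and 964 in KO and 2602 and 5024 in wt arrays at 6 h, against 756 to 806 untreated. The part of neutrophil RNA in this list was not tested.

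Chemokines split, with 9 of 22 higher and 5 lower, 4 of the 14 alike (2 without KO 6 h replicate 1), and the share lower, 22.7%, was near the 24.6% of all tested genes. The counts were 6 and 3 without untreated wt replicate 2 or untreated KO replicate 1, and 8 and 3 without wt 6 h replicate 2. Ccl2, which draws monocytes, measured 10.79 and 8.63 in KO and 10.21 and 10.82 in wt liver at 6 h, against 6.61 and 6.76 in untreated KO and 5.86 and 6.50 in untreated wt liver. It rose by 3.68 ± 0.46 (adjusted p = 0.00027), with KO 6 h replicate 2 the lowest of the 6 h arrays and still above all untreated ones. Ccl3 rose by 3.11 ± 0.36, and Cxcl12 and Ccl9, which resting liver expresses, fell by 1.79 and 1.07.

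Acute phase genes rose in 10 of 28 members (35.7%) and fell in 7 (25%), with 7 alike. Those alike were 41.2% of those called, against 61.4% of all called genes. The share lower was near the 24.6% of all tested genes, of which 18.7% were higher. The counts were 5 and 7 without untreated wt replicate 1, 6 and 8 without untreated wt replicate 2, 6 and 6 without wt 6 h replicate 2 and 6 and 7 without KO 6 h replicate 1. Lcn2, which binds bacterial siderophores, rose by 3.18 ± 0.27, and Osmr, the receptor of oncostatin M, by 2.05 ± 0.13. The secreted proteins Saa4 and Crp fell by 1.04 and 0.60. Interferon-induced genes rose in 6 of 28 and fell in 4, with 4 alike. These shares, 21.4% and 14.3%, lie near or below the 18.7% and 24.6% of all tested genes. Among the called interferon-induced genes, 40% were alike, against 61.4% of all called genes. The counts were 3 and 4 without untreated wt replicate 1, 3 and 8 without wt 6 h replicate 1 and 3 and 3 without KO 6 h replicate 1.

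Ligands and feedback genes of EGF receptor signalling rose in 11 of 24 members and fell in 2 (1 without any array other than untreated KO replicate 1 or KO 6 h replicate 2), with 5 alike (10 without KO 6 h replicate 2). With all arrays the alike share was 38.5% of those called, against 61.4% of all called genes. Btc, the ligand betacellulin, measured 8.83 and 8.2 in KO and 8.60 and 8.42 in wt liver at 6 h, against 6.24 and 6.34 in untreated KO and 5.92 and 6.60 in untreated wt liver. It rose by 2.24 ± 0.17 (adjusted p = 2.67e-05) without overlap, and the ligand gene Tgfa rose by 0.66 ± 0.08. Erbb3, a receptor that lacks full kinase activity, fell by 1.36. Thbs1, which encodes thrombospondin, was not alike at 2.40 in KO and 5.23 in wt liver. Of 25 cell cycle genes, 2 rose and 5 fell, 8% and 20% against 18.7% and 24.6% of all tested genes (4 and 5 without wt 6 h replicate 1), among them Mcm10, a replication factor, which fell by 1.56.

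Epithelial genes that injured hepatocytes and ducts share rose in 12 of 21 members and fell in 0 (1 fell without wt 6 h replicate 1), with 9 alike and a median of 0.86. Krt8 and Krt18, the keratins of hepatocytes, rose by 1.40 ± 0.08 and 1.93 ± 0.08. Krt18 measured 12.47 and 12.48 in KO and 12.68 and 12.68 in wt liver at 6 h, against 10.70 and 10.66 in untreated KO and 10.54 and 10.70 in untreated wt liver, with no overlap. Krt7 and Krt19, keratins of bile duct cells chosen after their values were seen, differed by 0.08 and 0.03 and did not pass. Anxa2, a membrane-binding annexin, rose by 2.36 ± 0.13.

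Of markers of other liver cells, those of Kupffer cells and macrophages fell in 10 of 19 members and rose in 4, with 8 alike (4 with untreated KO replicate 1 left out, 5 with KO 6 h replicate 1 left out). Among those called with all arrays, 57.1% were alike, against 61.4% of all called genes. The summed intensity of the Kupffer cell and macrophage markers was 7393 to 8730 at 6 h, against 9101 to 10590 in untreated liver, with no overlap. Folr2, of resident macrophages, fell by 0.91, and the endotoxin co-receptor gene Cd14, which hepatocytes can also express, rose by 3.69 ± 0.25. Markers of sinusoidal endothelium fell in 12 of 20 members and rose in 3 (10 and 1 without untreated wt replicate 1), with sums of 10313 to 12823 at 6 h, against 13736 to 14765. Of 17 stellate cell and fibroblast markers, 3 rose and 5 fell, 17.6% and 29.4% against 18.7% and 24.6% of all tested genes (2 and 3 without untreated wt replicate 2), with sums of 9119 to 11061, against 8723 to 10758. The part of cell numbers in these values was not tested.

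Of 15 neutrophil markers, 8 rose and 2 fell, and 1 was alike (0 without untreated wt replicate 1, untreated KO replicate 2 or either wt 6 h replicate), while the KO minus wt difference was called for 4 of the 15. Without an array the counts were 2 and 1 (untreated wt replicate 1), 3 and 2 (untreated wt replicate 2), 10 and 1 (untreated KO replicate 2), 5 and 2 (wt 6 h replicate 1), 3 and 1 (wt 6 h replicate 2) and 10 and 1 (KO 6 h replicate 2). Csf3r, the receptor of the growth factor G-CSF, measured 6.77 and 6.33 in KO and 9.0 and 8.46 in wt liver at 6 h, against 5.97 and 6.27 in untreated KO and 6.34 and 6.14 in untreated wt liver. The wt arrays at 6 h stood apart from all others. Marker lists of lymphocytes and NK cells (1 of 15 higher, 5 lower), erythroid cells (1 of 7 higher, 2 lower) and fat or pancreas (0 of 9 higher, 4 lower) had 40%, 42.9% and 44.4% of members called, near the 43.3% of all tested genes. Summed erythroid intensity was 1031 and 1081 in KO and 2694 and 1884 in wt liver at 6 h, against 1635 to 2092 in untreated liver. In this sum the KO arrays at 6 h lay below all others. Without an array in turn, lymphocyte and NK cell calls were 0 to 1 higher and 2 to 5 lower, and fat or pancreas calls were 2 lower without untreated wt replicate 1 or 2 or wt 6 h replicate 2.

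For alike genes changed at least 2-fold at 6 h, values at 2 h and 6 h are given side by side. They share the untreated arrays, so the times were not compared by a test. The 497 genes at least 2-fold higher at 6 h had a median of 0.44 at 2 h and 1.32 at 6 h, and 279 of them were already called higher at 2 h, where 15% of all tested genes were. The 548 genes at least 2-fold lower at 6 h had a median of -0.74 at 2 h and -1.31 at 6 h, and 488 were already called lower, against 21.4% of all tested genes. Since these genes were chosen by a contrast with the same untreated arrays, nothing is read from these shares. At 2 h, 392 of the 497 and 394 of the 548 were within 2-fold of untreated liver.

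Single genes followed different courses, and the examples plotted by time were picked after their values were seen. Atf3, Cidec, Acot1 and Mt1 stood at 6.39, 6.05, 3.30 and 3.45 at 2 h, close to or above their changes at 6 h of 6.49, 5.18, 2.54 and 3.52. Sprr1a, Psat1, Anxa2 and Btc stood at 0.44, 0.28, -0.15 and -0.22 at 2 h, where none of the 4 was called, and at 7.43, 5.33, 2.36 and 2.24 at 6 h. Of the protein synthesis genes, Ddx21 and Sars were partly up at 2 h (0.58 and 0.57), and Eif4e was at 0.15. The proteasome gene Psmd14 stood at 0.39. Srebf1 had nearly its whole fall at 2 h (-2.22, against -2.31 at 6 h), while Thrsp, Akr1d1 and Aldh4a1 stood at -3.15, -1.63 and -0.72.

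**Figure D4:**
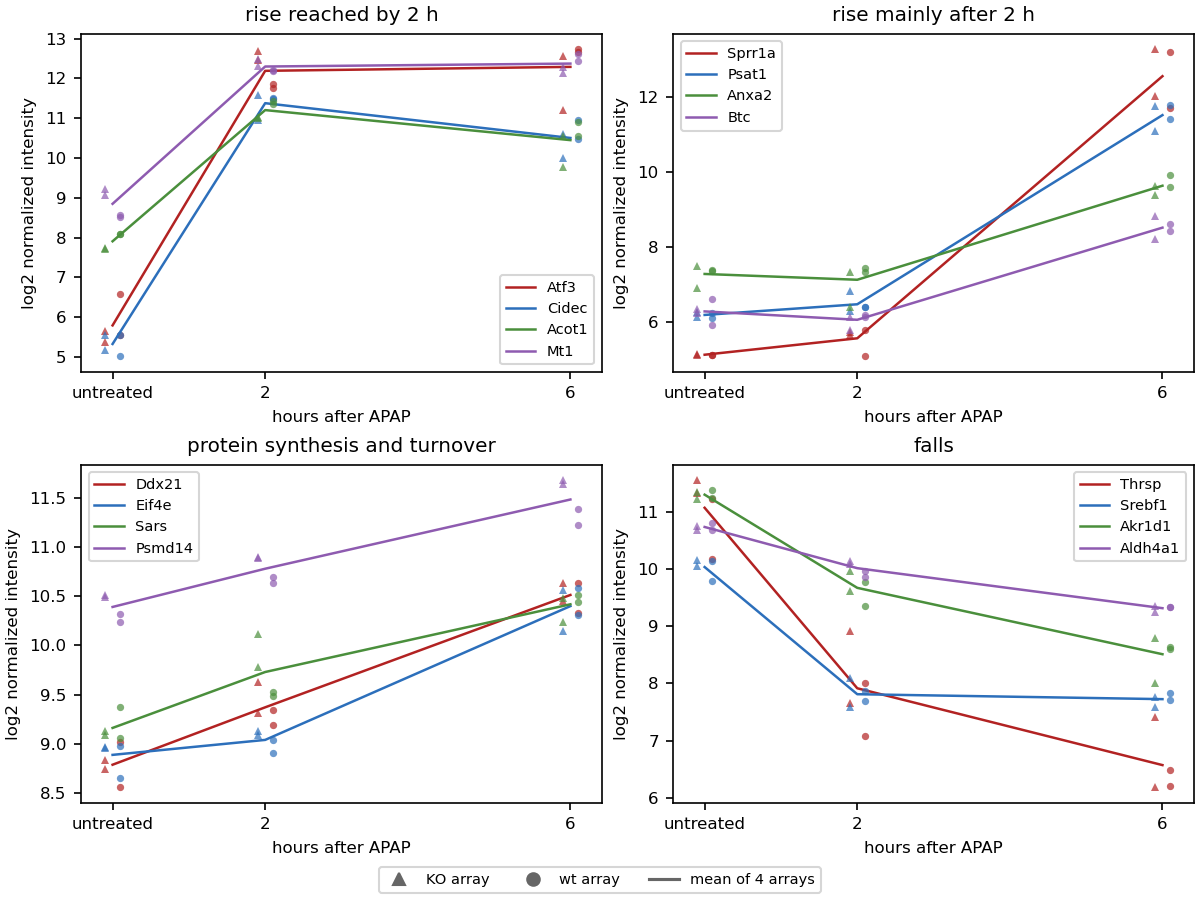
Log2 normalized intensity of 16 named genes in untreated liver and at 2 h and 6 h after APAP, triangles for KO and circles for wt arrays, lines through the mean of 4 arrays. Atf3, Cidec, Acot1 and Mt1 are high at 2 h, Sprr1a, Psat1, Anxa2 and Btc are high at 6 h only, and Srebf1 is low at both times.

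Genes outside the band show where likeness ended. Of 1329 called genes with at least 2-fold changes, 1045 were alike, 210 had arrays apart but a gap over the bound, 74 had overlapping arrays, and the KO minus wt difference was called for 26. Gprc5a, a retinoic acid-induced receptor of epithelia, measured 6.26 and 5.69 in KO and 10.56 and 9.43 in wt liver at 6 h, against 5.02 and 5.01 in untreated KO and 4.93 and 5.13 in untreated wt liver. Its KO minus wt difference was -4.01 ± 0.47 (adjusted p = 0.0222), and all 6 h arrays still lay above the untreated ones. Gprc5a and the genes of the next paragraph were named for such a difference. Whether it holds for each of them without single arrays was not examined.

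Abcc4, an efflux pump of the basolateral membrane that NRF2 is known to raise, measured 9.49 and 9.65 in KO and 7.83 and 7.72 in wt liver at 6 h, against 7.44 and 7.47 in untreated KO and 7.33 and 7.67 in untreated wt liver. Here the KO arrays were the high ones, with a KO minus wt difference of 1.84 ± 0.19 (adjusted p = 0.0161). Its shared call ended without KO 6 h replicate 1 (adjusted p = 0.0539). Ivl, which encodes involucrin of the cornified envelope, rose by 0.38 in KO and 2.60 in wt liver. Cetn4, Apold1 and S100a9 had KO minus wt differences of -3.33, -2.21 and -2.54, and their shared calls ended under several alternatives. Cetn4 was below 5 in all untreated arrays.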

How the data were processed

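Liver RNA of 12 samples was measured on Mouse Gene 1.1 ST arrays of Affymetrix, 1 array each. The 8 arrays at 6 h and untreated were compared. The 2 h arrays gave values and calls at 2 h. They also entered the intensity filter, the choice of probe set and an alternative fit over all 12 arrays. The deposited intensity values, on a linear scale, were made by the authors with RMA in Affymetrix Expression Console, per the submitters' processing notes, a method that corrects background, normalizes by quantiles and summarises probes per probe set. They are not counts, and 2 arrays per group limit the precision. Log2 was taken of them here. Of 35556 probe sets, 21218 had 1 gene symbol in the platform annotation, 1881 several and 12457 none. Genes entered the test with 1 symbol and a mean log2 of at least 5 over the 12 arrays, by the probe set of highest mean (17052 genes).

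The shared response was the treatment term of genotype plus treatment in limma 3.58.1 under R 4.3.3 (5 residual and 3.78 prior degrees of freedom), called at a Benjamini-Hochberg adjusted p under 0.05 over all tested genes. Responses within KO and wt, and their difference, came from 4 group means (4 residual degrees of freedom). Values after ± are standard errors from the fit on log2 values. The fit was tested on simulated data of 17052 genes: of 50 genes changed in both genotypes at each size, 64% were called at a log2 change of 0.5, 90% at 1 and 100% at 2 and 4. Genes changed in wt alone were counted as alike in 2% of 50 at 0.5 and in 0% at the larger sizes. A change in wt alone lies outside the likeness bound by construction, so these shares do not test the rule. The simulated noise was independent between arrays and few genes were changed, unlike in the measured data.

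Members and the 41 gene lists were chosen with earlier results of these data known. Genes named are the 14 largest alike rises and falls, up to 4 members of smallest p per list and 1 opposite or unlike member, 3 on either side of the likeness bound, 6 with the clearest KO minus wt difference, and Pml, Cyp2e1, Gclc and Alb. The predicted genes, microRNAs, small nucleolar RNAs and olfactory or vomeronasal receptors were passed over. Cdkn1a, Cyp7a1, Hspd1, Ier3, Jund, Krt7, Krt19, Slc7a11, Tars and Vegfa were named after their values were seen. Alternatives covered the intensity filter, quantile normalization, an added value of 16, a variance trend, averaging over all probe sets of 1 gene, other designs, the replicate block and leaving out each array. Replicate numbers did not pair the arrays (correlations of same-numbered deviations of -0.08 to 0.15). Probes of close paralogs may read more than 1 gene.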

Additional observations from a re-analysis of the deposited data

Results flagged for a closer look

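A few genes of the report had KO and wt responses whose difference passed its own test in limma. Most were named because of that difference, so its passing is no further support. How the difference of each gene fared without single arrays was not examined, and the count over all tested genes rested on single arrays. The KO minus wt difference of the log2 response was -4.01 for Gprc5a, -3.33 for Cetn4, -2.54 for S100a9, -2.22 for Ivl, -2.21 for Apold1 and -2.06 for Csf3r, so the KO response was the lower in each. It was 1.84 for Abcc4, with the higher response in KO liver, and 1.68 for Atp6v0d2, which fell less in KO than in wt liver. Cetn4 was read by a further probe set that changed by 0.22.

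Probe sets with several gene symbols or none took no part in the comparisons. Of 11331 of them that passed the intensity filter, 842 were called higher and 1445 lower at 6 h in the same fit.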

How the results depend on the processing

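Leaving out an array in turn gave 2578 to 3111 genes higher and 3375 to 4243 lower in the shared response, 1538 to 2104 alike and higher, 2181 to 2987 alike and lower, 378 to 606 and 448 to 642 of these at least 2-fold, and 552 to 627 called members of the gene lists (621 with all arrays). It gave 3654 to 6521 calls within wt, 3330 to 5642 within KO and 4 to 263 for the KO minus wt difference, which was 39 at a mean log2 of at least 7, where fewer genes were tested. A group left with 1 array was assumed to vary like the others. No named gene and no count over all genes changed direction under the alternatives run. The balance of higher and lower calls turned in small lists: circadian clock (4 and 3 with all arrays) gave 1 and 4 without untreated wt replicate 2, acute phase (10 and 7) 6 and 8 without the same array, and interferon-induced genes (6 and 4) 3 and 8 without wt 6 h replicate 1. Fatty acid oxidation had a median of 0.03, and -0.07 without KO 6 h replicate 1. A likeness bound of 0.3 left 1300 genes alike and higher and 1853 lower, a bound of 1 left 2502 and 3498, and dropping the condition on overlap 2029 and 2856. Quantile normalization gave 3461 higher and 3851 lower and moved the median of all genes to -0.01. With the replicate number as a block, 3053 rose, 4038 fell and 69 differed between genotypes, although the numbers do not pair the arrays. Of 225 named genes called, 209 kept their call under each setting that tested them, and some were not tested at a mean log2 of at least 7. The mean of its probe sets moved Cetn4 to 0.95. Fits of 4 or 6 group means called 7 NRF2 targets, 8 endoplasmic reticulum genes and 7 or 8 cell cycle genes lower (4, 5 and 5 in the additive fit). Without the genotype term 3 neutrophil markers were called higher, against 8 with it. Adding 16 to each intensity before log2 gave Aloxe3 a rise of 5.64.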
